A study of Mus musculus with 12 samples.

Results

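The proteasome is the chambered protease that degrades ubiquitin-tagged proteins. Its 20S core particle is a barrel of alpha and beta rings, in which *Psmb5*, *Psmb6* and *Psmb7* encode the chymotrypsin-like, caspase-like and trypsin-like catalytic subunits. The 19S regulatory particle binds the ends of the core, recognises ubiquitin chains, removes them and unfolds the substrate with a ring of ATPases, and dedicated chaperones build both particles. In many mammalian cells NRF1, encoded by *Nfe2l1*, induces the constitutive subunits together when proteasome capacity falls short. Heme in excess is known to inhibit the proteasome.

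The genes described here are the protein-coding genes of the expression table whose symbols begin Psma, Psmb, Psmc or Psmd followed by a number, or Psmg followed by 1 digit, together with *Pomp*. The 3 inducible immunoproteasome subunits *Psmb8*, *Psmb9* and *Psmb10* were left out of this set. Membership followed the symbol. The rule gave 41 of the 54532 genes in the table, of which 39 reached an FPKM (fragments scaled by gene length in kilobases and by library size) of at least 1 in at least 3 libraries and were tested among 12740 such genes. The other two, *Psma8*, a testis form of an alpha subunit, and *Psmb11*, a thymus form of a beta subunit, were listed at 0 in every library.

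Poly-A mRNA was sequenced from colonoids, organoids grown from the stem cells of mouse colonic epithelium, in 12 libraries. Control colonoids (Hmox1 fl/fl) and colonoids labelled KO (Hmox1 fl/fl with Vil1-Cre, which acts in intestinal epithelium) each received vehicle or 200 µM hemin, a ferric heme chloride, for 24 hours, with 3 libraries in each of the 4 groups. All groups carried the floxed *Hmox1* allele, came from epithelium of mice 8 to 12 weeks old, and grew in L-WRN conditioned medium. The genotype of hemin replicate 3 labelled KO was written with floxed alleles and Vil1 Cre, whereas the other KO labels read Hmox1 KO with Vil1 Cre. Neither the number of animals behind the libraries nor whether each genotype was a single organoid line was stated, so p-values measure the spread between these libraries, which may be technical, and genotype and organoid line cannot be told apart. *Hmox1*, which encodes the heme-degrading enzyme HO-1, measured 7.62, 6.85 and 7.90 FPKM in control vehicle libraries, 503, 483 and 382 with hemin, 3.14, 2.11 and 2.31 in vehicle libraries labelled KO and 1279, 1392 and 1271 in hemin libraries labelled KO. Its level was thus lower in the libraries labelled KO with vehicle and higher with hemin (log2 fold change 1.53 ± 0.12, adjusted p = 3.29e-06), so by whole-gene FPKM the hemin libraries went against the label. Which exons the floxed allele loses is not given in the sources used here, so it is not known whether whole-gene FPKM can show the deletion, and every direction between genotypes below is one between the labels.

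Between 11648801 and 25101868 fragments were recovered per library, and the hemin control libraries held the fewest. Summed FPKM of 8 epithelial markers lay between 5970 and 10402, that of 5 colon epithelial markers between 1465 and 6624, and the sums of 7 immune, 5 mesenchymal and 3 endothelial markers reached at most 0.779, 0.0791 and 0.192. The labelled cell type therefore matched its markers, and *Ptprc*, *Col1a1* and *Pecam1*, which define the other cell types, belong to lists at or near 0 in every library. In this bulk measurement, fewer cells of a type and less RNA per cell cannot be told apart. Control hemin replicate 3 stood apart from the other libraries, with an SD of its deviations from its group mean of 0.322 on the log2 scale over all tested genes and 0.210 over the proteasome genes, against at most 0.237 and 0.168 in the other 11, and mitochondrially encoded genes made up 11.9% of its FPKM, against 5.63% to 7.70% elsewhere. Control vehicle replicate 1 deviated most within its own group, with 0.187 over all tested genes, less than the other 2 control hemin libraries (0.216 and 0.237). Counts are also given without the most deviating library of each control group, which leaves out these 2.

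The deposited scaling decides how a level change reads here. Under it the median log2 fold change with hemin over all tested genes was -0.01 in control and -0.00190 in KO-labelled colonoids, whereas rescaling each library to a fixed FPKM sum (TPM) moved these medians to -0.19 and -0.31. A single gene, *Gm23935*, held 16.8%, 29.0% and 21.0% of the FPKM sum in 3 libraries, and with it left out of the sum the medians were -0.12 and -0.21. Changes are therefore given on the deposited scale, where the median gene hardly moved. Of the members that rose with hemin on this scale (20 in KO-labelled and 10 in control colonoids), 0 passed under TPM, where 10 and 1 of them had a log2 fold change below 0, so every rise of a member with hemin given below is lost on that scale. The 3 falls in KO-labelled colonoids passed on both scales.

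The 39 tested genes spanned a wide range of levels per length. In control vehicle colonoids the group means ran from 2.67 FPKM for *Psmg3*, a chaperone subunit of core assembly, to 104 FPKM for *Psma6*, an alpha subunit, with a median of 34.8. Alpha subunits ran from 21.7 (*Psma3*) to 104 FPKM, beta subunits from 19.9 (*Psmb7*) to 94.6 (*Psmb5*), ATPases from 21.0 (*Psmc2*) to 77.6 (*Psmc5*) and the remaining base and lid subunits from 16.0 (*Psmd11*) to 76.3 (*Psmd2*). The dedicated assembly factors were lower, from 3.99 (*Psmd9*) to 18.9 (*Psmd10*) for the 19S and from 2.67 (*Psmg3*) to 16.2 (*Psmg1*) for the 20S. Replicate libraries were close for these genes, with a median coefficient of variation of 2.88% in KO-labelled vehicle libraries, 5.70% and 5.40% in control vehicle and KO-labelled hemin libraries, and 10.6% in control hemin libraries.

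Promoter sequence was available from RefSeq (GRCm38.p6, 250 bases before to 50 after the start) for 33 of the 41 genes. The core of the antioxidant response element, TGACNNNGC on either strand, through which NRF1 and NRF2 are known to act, stood in the window of 5 of these 33 (15.2%), against 13.99% of 27025 genes with a window. The stricter form TGACTCAGC, which is one case of the core, was in 0 of 33 against 0.503%, the cyclic AMP response element TGACGTCA in 0 of 33 against 2.03%, and CCAAT in 12 of 33 (36.4%) against 41.1%, so the share with the core or with CCAAT was close to that of all genes. The 5 stretches that hold the core are shown, trimmed to bases outside annotated exons, because they are the members whose windows carry this element, and they show how the 3 free bases differ. Capitals mark the match, which reads in reverse complement in *Psmc6* and *Psmd12*.
Psmb5: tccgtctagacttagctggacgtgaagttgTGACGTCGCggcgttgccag
Psmb6: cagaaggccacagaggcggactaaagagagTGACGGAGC
Psmc6: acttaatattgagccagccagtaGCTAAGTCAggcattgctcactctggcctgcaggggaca
Psmd12: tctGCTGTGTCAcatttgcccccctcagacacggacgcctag
Psmd9: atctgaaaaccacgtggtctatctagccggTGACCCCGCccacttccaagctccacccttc
These lie at chr14:54618023-54618072 (*Psmb5*, minus strand, -77 to -28 from the start), chr11:70525318-70525356 (*Psmb6*, plus strand, -39 to -1 from the start), chr14:45329574-45329635 (*Psmc6*, plus strand, -250 to -189 from the start), chr11:107479278-107479319 (*Psmd12*, plus strand, -250 to -209 from the start) and chr5:123228129-123228189 (*Psmd9*, plus strand, -61 to -1 from the start). The 5 genes are 2 catalytic subunits, an ATPase, a lid subunit and a 19S chaperone, and of these only *Psmc6* rose with hemin in KO-labelled colonoids. A match is a description of the letters and not of binding.

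Hemin in KO-labelled colonoids was the comparison in which most proteasome genes moved, as it was for all tested genes. There 16 of 39 members and 5046 of 12740 tested genes did not pass, so the share that moved in either direction was close to that of all genes. Of the 39, 20 rose and 3 fell at an adjusted p under 0.05 (limma, on the deposited scale), against 29.9% of all tested genes higher and 30.4% lower, and their median log2 fold change was 0.21, against -0.00190 over all tested genes, while under TPM 0 rose and 3 fell and the median was -0.12, against -0.31. The 20 comprised 12 of the 17 subunits of the 19S particle, 6 of the 14 subunits of the 20S core, the 19S chaperone *Psmd5* and the core maturation factor *Pomp*. The 3 that fell were all chaperone subunits of core assembly (*Psmg1*, *Psmg2* and *Psmg4*). None of the changes exceeded 2-fold. In control colonoids 10 of 39 rose with hemin and 0 fell, against 23.2% of all tested genes higher and 26.7% lower (limma; at an unadjusted p under 0.05, 13 were higher and 0 lower, and limma-voom on recovered fragments called 11 and 0), with a median of 0.08 against -0.01, and under TPM 0 rose and 0 fell, with a median of -0.11 against -0.19. The share that rose in control colonoids was thus close to the background, whereas the share that rose in KO-labelled colonoids was above it and the share that fell was below it in both.

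Epithelial markers moved with hemin too. Of the 8 epithelial markers 7 rose and 1 fell in KO-labelled colonoids, with a median of 0.70 (4 rose and 1 fell under TPM), and 5 rose and 0 fell in control colonoids, with a median of 0.42 (3 and 0 under TPM). Their summed FPKM was 5970 to 6021 with vehicle and 7878 to 9221 with hemin in KO-labelled libraries, without overlap, whereas the control ranges of 8399 to 9323 and 8374 to 10402 overlapped. The 5 colon epithelial markers went both ways, with 2 that rose and 2 that fell in KO-labelled (median -0.17, and 1 and 3 under TPM) and 2 that rose and 1 that fell in control colonoids (median 0.09, and 2 and 1 under TPM). Their summed FPKM, most of which came from *Car1*, was 2352 to 2590 with vehicle and 4338 to 6624 with hemin in control and 1465 to 1526 and 2791 to 3214 in KO-labelled libraries. The part of these markers in the counts was not tested.

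Leaving out 1 library at a time gave 13 to 25 members higher in KO-labelled and 7 to 13 in control colonoids, with the fewest in KO-labelled colonoids without vehicle replicate 2 (13). In control colonoids 2 members were lower without control hemin replicate 2 or 3, and 1 without control vehicle replicate 1. Without the most deviating library of each control group 13 rose and 2 fell in control colonoids, and 25 rose and 3 fell in KO-labelled ones. With *Gm23935* left out of the TPM sum 6 rose and 7 fell in KO-labelled and 3 rose and 4 fell in control colonoids. Relative to the median of all tested genes the members' median was 0.22 higher in KO-labelled colonoids on the deposited scale and 0.19 under TPM, and 0.13 higher when the comparison was kept to genes averaging an FPKM of 5 or more. In share of the FPKM sum without *Gm23935*, the members made up 0.559% to 0.561% in KO-labelled vehicle and 0.538% to 0.560% in KO-labelled hemin libraries, and 0.520% to 0.526% and 0.495% to 0.532% in the control libraries, so the ranges with vehicle and hemin overlapped in both genotypes.

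**Figure D1:**
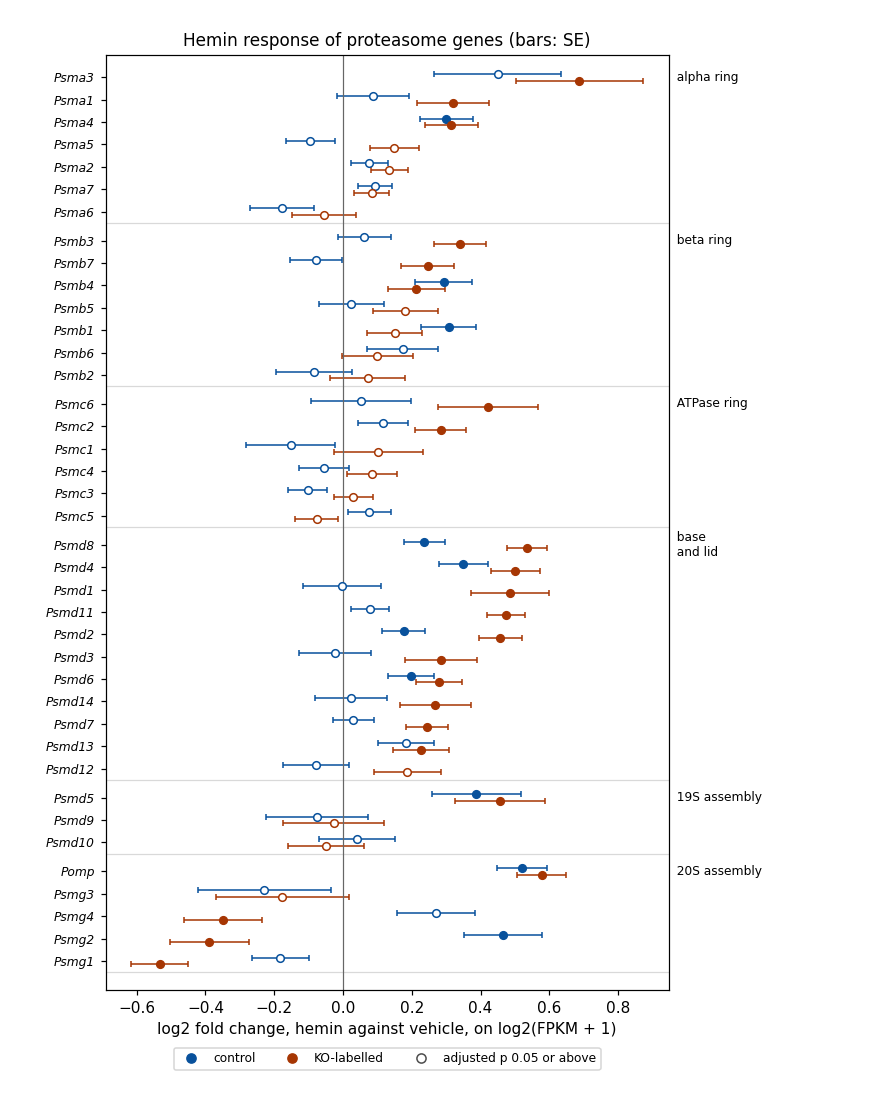
Log2 fold change with hemin against vehicle (horizontal axis, on log2(FPKM + 1)) for the 39 tested proteasome genes, grouped by role, in control (blue) and KO-labelled (brown) colonoids. Bars are standard errors, and filled points passed an adjusted p of 0.05. Of the 11 base and lid subunits 10 are filled in KO-labelled colonoids, where 29.9% of all tested genes rose, and 4 in control, where 23.2% rose (0 of the 39 rose under TPM).

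The base and lid of the 19S particle, which hold the scaffold, the ubiquitin receptors and the deubiquitinase, had the highest share of members that rose with hemin in KO-labelled colonoids among the 6 role groups. There 10 of 11 rose on the deposited scale, against 29.9% of all tested genes, with a median log2 fold change of 0.28 (0.29 above that of all tested genes). Under TPM 0 of 11 passed and the median was -0.05 (0.26 above that of all tested genes). In control colonoids 4 of 11 rose (*Psmd2*, *Psmd4*, *Psmd6* and *Psmd8*) against 23.2% of all tested genes, with a median of 0.08. With only the groups compared it was 1 of 11, and the control call of *Psmd6* was lost in 7 of 23 alternatives (other ways of processing the values at the same adjusted p and with no fold threshold, not all of which can move a fold change). *Psmd8*, a lid subunit, measured 44.6, 44.7 and 44.01 FPKM in KO-labelled vehicle libraries and 63.6, 63.2 and 67.6 with hemin, and 56.05, 49.2 and 49.8 and 61.5, 61.2 and 60.2 FPKM in control vehicle and hemin libraries. All hemin libraries lay above all vehicle libraries, and the KO-labelled vehicle libraries were the lowest group. The change was 0.53 ± 0.06 (adjusted p = 1.58e-05) in KO-labelled and 0.24 ± 0.06 (adjusted p = 0.00619) in control colonoids, and the difference between these passed the test (0.30 ± 0.08, adjusted p = 0.0242).

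*Psmd12*, a lid subunit, was the exception in KO-labelled colonoids, at 29.1, 27.5 and 28.2 FPKM with vehicle and 30.6, 33.5 and 32.8 with hemin, against 28.8, 29.8 and 27.6 and 26.04, 23.7 and 32.5 FPKM in the control groups. Its KO-labelled hemin libraries lay above the vehicle libraries without overlap, and the control hemin libraries spread on both sides of their vehicle libraries. The change did not pass the test (0.19 ± 0.10, adjusted p = 0.117, limma). *Psmd4*, a ubiquitin receptor, rose by 0.50 ± 0.07 in KO-labelled and 0.35 ± 0.07 in control colonoids (adjusted p = 0.000108 and 0.00184). *Psmd2*, the scaffold that binds ubiquitin-like domains, rose by 0.46 ± 0.06 and 0.18 ± 0.06 (adjusted p = 8.36e-05 and 0.0363), and its rise in control colonoids was lost in 13 of 23 alternatives. *Psmd11*, a lid subunit, rose by 0.47 ± 0.06 in KO-labelled colonoids (adjusted p = 2.35e-05) and was at 0.08 ± 0.06 in control (adjusted p = 0.256). *Psmd14*, the deubiquitinase of the lid, rose by 0.27 ± 0.10 in KO-labelled colonoids (adjusted p = 0.0448) and was at 0.02 ± 0.10 in control (adjusted p = 0.877). Its call was lost in 14 of 23 alternatives. Under TPM the KO-labelled values were 0.20 for *Psmd8*, 0.17 for *Psmd4*, 0.12 for *Psmd2*, 0.16 for *Psmd11* and -0.06 for *Psmd14*, and the control value of *Psmd2* was -0.01. With *Gm23935* left out of the TPM sum 4 of the 11 rose.

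The ATPase ring unfolds the substrate and opens the core. In KO-labelled colonoids 2 of 6 rose, *Psmc2* (0.28 ± 0.07, adjusted p = 0.00614) and *Psmc6*, a share close to the 29.9% of all tested genes. Under TPM 0 of 6 rose, the median was -0.24 and the values were -0.04 for *Psmc2* and 0.09 for *Psmc6*, and with *Gm23935* left out of the TPM sum 0 rose and 2 fell. In control colonoids 0 of 6 rose in limma, at an unadjusted p too, and in limma-voom, against 23.2% of all tested genes in limma. The limma median was -0.00173. *Psmc6* measured 27.5, 26.8 and 25.8 FPKM in KO-labelled vehicle and 34.5, 38.9 and 34.97 in KO-labelled hemin libraries, and 35.7, 26.5 and 26.6 and 28.6, 25.6 and 38.5 FPKM in control vehicle and hemin libraries. The KO-labelled hemin libraries lay above the KO-labelled vehicle libraries, while the control groups overlapped and control vehicle replicate 1 and hemin replicate 3 were high. Its log2 fold changes were 0.42 ± 0.15 (adjusted p = 0.0267) and 0.05 ± 0.15 (adjusted p = 0.788), and the rise was lost in 7 of 23 alternatives. *Psmc5* was the lowest of the ring by this measure, at 77.2, 80.3 and 79.97 FPKM with vehicle and 79.6, 70.4 and 75.2 with hemin in KO-labelled and 74.9, 81.3 and 76.4 and 78.4, 80.6 and 86.6 in control colonoids. Vehicle and hemin libraries overlapped in both genotypes, and neither change passed the test (-0.08 ± 0.06, adjusted p = 0.315 and 0.08 ± 0.06, adjusted p = 0.34).

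Of the catalytic subunits, *Psmb7* alone passed the test in KO-labelled colonoids with hemin. *Psmb7* measured 21.9, 21.3 and 21.9 FPKM with vehicle and 28.9, 23.01 and 26.2 with hemin in KO-labelled libraries, and 19.3, 20.3 and 20.1 and 19.5, 19.2 and 17.7 FPKM in control libraries. Every KO-labelled hemin library exceeded every vehicle library of its genotype. The rise was 0.25 ± 0.08 (adjusted p = 0.0163) in KO-labelled and the value -0.08 ± 0.08 (adjusted p = 0.419) in control colonoids, with a difference that just missed the threshold (0.33 ± 0.11, adjusted p = 0.0512). The KO-labelled rise was lost in 4 of 23 alternatives, which were TPM, where the value turned to -0.08, TPM without *Gm23935*, and the fits without KO-labelled vehicle replicate 2 or KO-labelled hemin replicate 1. Of the exon bases of *Psmb7*, 11.8% overlap *Nek6* on the other strand, whose mean was 5.21 FPKM and whose reads cannot be told apart if the counting ignored strand, which the sources used here do not state.

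*Psmb5* measured 109.5, 115 and 113 FPKM with vehicle and 132, 123 and 128 with hemin in KO-labelled libraries, and 87.5, 95.4 and 101 and 100.2, 108 and 81.98 in control libraries. KO-labelled hemin libraries lay highest of the 4 groups, without overlap with any other, and control hemin replicate 3 was the lowest of all. Neither hemin change passed the test (0.18 ± 0.09, adjusted p = 0.118 in KO-labelled and 0.02 ± 0.09, adjusted p = 0.851 in control colonoids). *Psmb6* measured 58.3, 59.1 and 57.9 and 68.6, 57.3 and 62.6 FPKM in KO-labelled vehicle and hemin libraries, and 48.9, 52.6 and 53.6 and 58.3, 68.2 and 49.98 FPKM in the control groups. Its vehicle and hemin groups overlapped in both genotypes, and neither change passed (0.10 ± 0.10, adjusted p = 0.424 and 0.17 ± 0.10, adjusted p = 0.186).

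Among the other beta subunits, which complete the ring without a catalytic site, *Psmb3* had the highest log2 fold change with hemin in KO-labelled colonoids, and measured 49.97, 48.4 and 50.1 FPKM with vehicle and 64.9, 62.1 and 61.7 with hemin, against 46.6, 45.6 and 49.7 and 52.9, 52.6 and 43.2 in control. KO-labelled hemin libraries exceeded all 9 others, and the control groups overlapped. It rose in KO-labelled colonoids (0.34 ± 0.08, adjusted p = 0.00271) and its control value did not pass (0.06 ± 0.08, adjusted p = 0.534). *Psmb2* had the lowest log2 fold change there, and measured 74.3, 74.9 and 74.2 and 71.6, 84.7 and 79.1 FPKM in KO-labelled and 95.4, 75.6 and 75.9 and 72.5, 71.1 and 88.9 FPKM in control vehicle and hemin libraries. Its vehicle and hemin groups overlapped in both genotypes, and the log2 fold changes were 0.07 ± 0.11 (adjusted p = 0.597) and -0.08 ± 0.11 (adjusted p = 0.552). *Psmb4* rose in both genotypes, by 0.21 ± 0.08 in KO-labelled and 0.29 ± 0.08 in control colonoids (adjusted p = 0.044 and 0.0126). Its KO-labelled call was lost in 14 of 23 alternatives, with -0.12 under TPM, and its control call in 3 of 23. *Psmb1* rose in control colonoids (0.31 ± 0.08, adjusted p = 0.00805) with 0.15 ± 0.08 in KO-labelled colonoids (adjusted p = 0.127). Under TPM the KO-labelled value of *Psmb3* was 0.01 and the control values of *Psmb4* and *Psmb1* were 0.10 and 0.12.

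Alpha subunits form the outer rings and the gate of the core. In KO-labelled colonoids 3 of 7 rose against 29.9% of all tested genes, *Psma1* (0.32 ± 0.10, adjusted p = 0.0217), *Psma3* and *Psma4* (0.31 ± 0.08, adjusted p = 0.00483), and *Psma4* was the 1 that rose in control colonoids (0.30 ± 0.08, adjusted p = 0.00812). Under TPM the KO-labelled values were -0.01, 0.37 and -0.02 and the control value of *Psma4* was 0.11, and the call of *Psma1* was lost in 6 of 23 alternatives. *Psma3* had the largest change of all members with hemin in KO-labelled colonoids, from 20.4, 19.7 and 19.01 FPKM to 30.9, 36.3 and 30.1, and measured 26.6, 18.8 and 19.9 and 26.4, 23.9 and 41.5 FPKM in control vehicle and hemin libraries. The KO-labelled groups did not overlap, whereas the control groups did, with control hemin replicate 3 far above its 2 companions. The changes were 0.69 ± 0.19 (adjusted p = 0.00778) in KO-labelled and 0.45 ± 0.19 (adjusted p = 0.0653) in control colonoids. *Psma6* had the lowest change of the ring, with 97.7, 97.2 and 101 FPKM under vehicle and 100.1, 83.01 and 103 under hemin in KO-labelled and 97.7, 106 and 109 and 82.8, 101 and 93.02 FPKM in control libraries. Neither change passed (-0.06 ± 0.09, adjusted p = 0.626 and -0.18 ± 0.09, adjusted p = 0.14), and KO-labelled hemin replicate 2 was the lowest of its group.

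**Figure D2:**
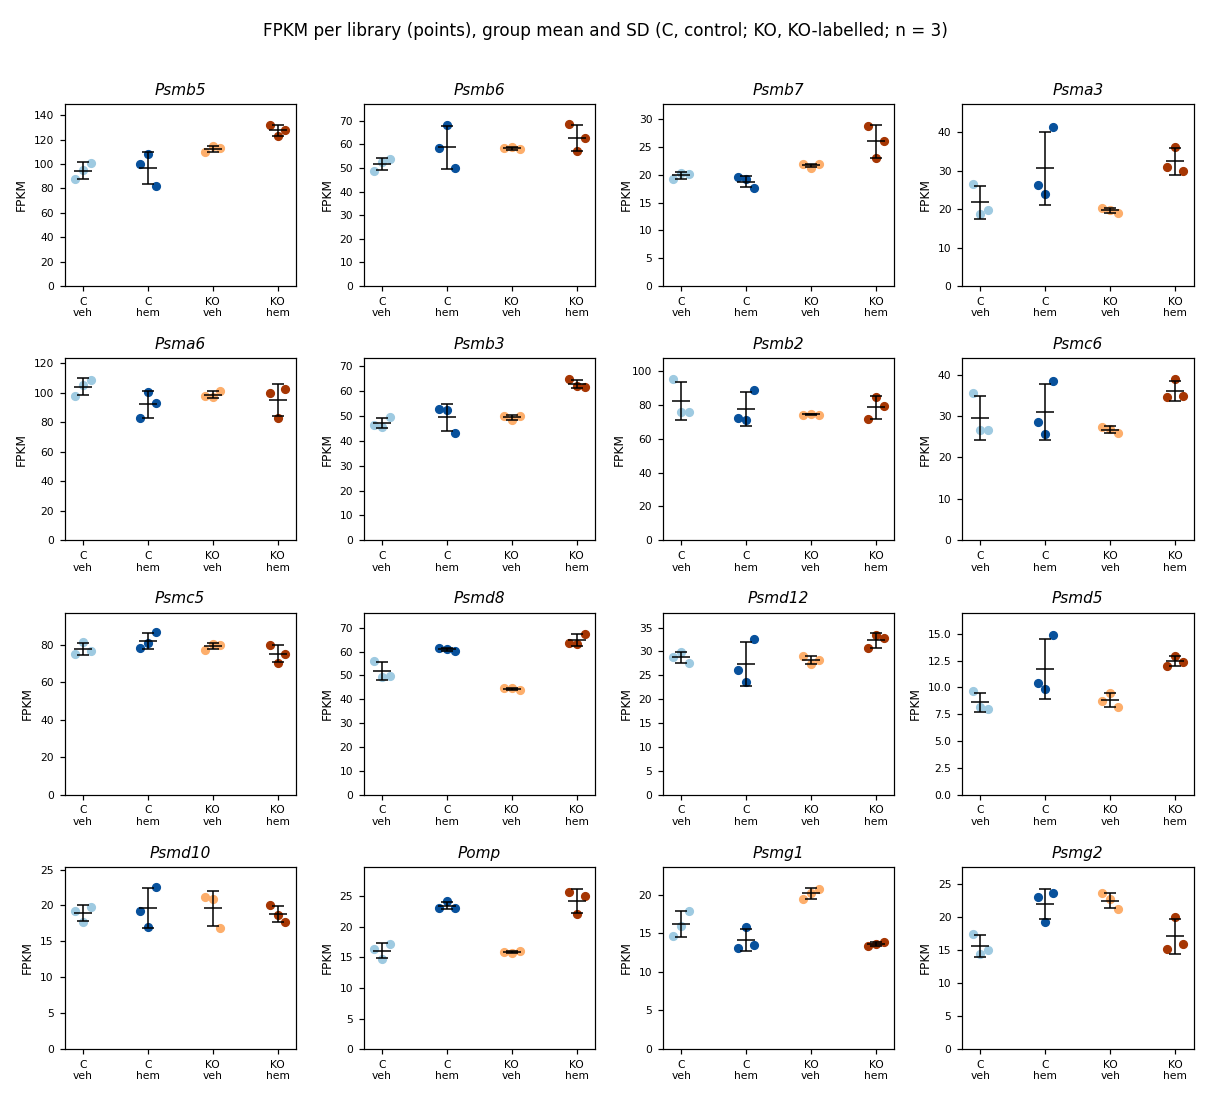
FPKM (vertical axes, from 0) in each of the 12 libraries for the 16 proteasome genes given in every library, in the order catalytic subunits first, with the group mean and SD in black (n = 3). *Pomp* is higher with hemin in both genotypes, whereas *Psmg2* is higher with hemin in control and lower with hemin in KO-labelled libraries.

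Assembly factors of the core went in different directions. POMP, the maturation factor that is itself degraded once a new core is complete, and the heterodimeric chaperones PAC1 to PAC4 (*Psmg1* to *Psmg4*), which build the alpha ring, act in the same pathway. *Pomp* measured 16.4, 14.7 and 17.2 FPKM in control vehicle and 23.1, 24.2 and 23.2 in control hemin libraries, and 15.97, 15.7 and 16.1 and 25.7, 22.1 and 25.1 FPKM in the KO-labelled groups. All 6 hemin libraries lay above all 6 vehicle libraries. It rose in both genotypes (0.52 ± 0.07, adjusted p = 0.000134 in control and 0.58 ± 0.07, adjusted p = 4.02e-05 in KO-labelled), and the difference was 0.06 ± 0.10 (adjusted p = 0.749). Under TPM both rises were lost (adjusted p = 0.178 and 0.276).

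*Psmg1*, which encodes PAC1 of the PAC1-PAC2 dimer, measured 14.6, 15.9 and 17.9 and 13.1, 15.8 and 13.4 FPKM in control vehicle and hemin libraries and 19.4, 20.2 and 20.8 and 13.3, 13.7 and 13.8 FPKM in the KO-labelled ones. KO-labelled vehicle libraries were the highest of the 4 groups and fell with hemin to the level of the other hemin libraries. The fall was -0.53 ± 0.08 (adjusted p = 0.000225) and passed the test in all 23 alternatives, while the control value was -0.18 ± 0.08 (adjusted p = 0.0906). *Psmg2*, the partner of *Psmg1*, had the largest difference in hemin response of all members. It measured 17.5, 14.4 and 14.9 FPKM in control vehicle, 23.01, 19.2 and 23.5 in control hemin, 23.5, 22.6 and 21.2 in KO-labelled vehicle and 15.1, 20.03 and 15.9 in KO-labelled hemin libraries. Control hemin and KO-labelled vehicle libraries were the high groups and neither overlapped with control vehicle, while KO-labelled hemin replicate 2 reached the range of control hemin. With hemin *Psmg2* rose in control (0.47 ± 0.11, adjusted p = 0.00581) and fell in KO-labelled colonoids (-0.39 ± 0.11, adjusted p = 0.0122), and the difference between the 2 responses (-0.85 ± 0.16, adjusted p = 0.0031) passed in all 22 alternatives, between -1.03 and -0.78. The fall alone was lost without KO-labelled hemin replicate 1 (adjusted p = 0.0536), and the rise alone under TPM (adjusted p = 0.161).

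*Psmg4* had the same signs, with 0.27 ± 0.11 in control (adjusted p = 0.0721) and a fall of 0.35 ± 0.11 in KO-labelled colonoids (adjusted p = 0.0212), and a difference of -0.62 ± 0.16 (adjusted p = 0.0179). The fall was lost in 3 of 23 alternatives, each without 1 KO-labelled library (vehicle replicate 2, vehicle replicate 3 or hemin replicate 2). *Psmg3* stayed between 1.30 and 3.70 FPKM in all libraries, and no change passed. Of the 19S chaperones, *Psmd5* measured 9.63, 8.18 and 8.01 and 10.4, 9.84 and 14.9 FPKM in control vehicle and hemin and 8.71, 9.48 and 8.21 and 11.97, 12.9 and 12.4 FPKM in KO-labelled vehicle and hemin libraries. Hemin libraries lay above vehicle libraries in both genotypes, and control hemin replicate 3 was the highest. *Psmd5* rose in both (0.39 ± 0.13, adjusted p = 0.0288 and 0.46 ± 0.13, adjusted p = 0.0105), with 0.23 and 0.16 under TPM. The control rise was lost in 7 of 23 alternatives, among them no filter, the replicate block, only the groups compared, and the fits without control vehicle replicate 2 or 3, and the KO-labelled rise in 2 of 23. *Psmd10*, known as gankyrin, measured 19.3, 17.7 and 19.8 and 19.3, 16.98 and 22.6 FPKM in control and 21.2, 20.9 and 16.8 and 20.04, 18.7 and 17.7 FPKM in KO-labelled vehicle and hemin libraries, with groups that overlapped and changes of 0.04 ± 0.11 (adjusted p = 0.784) and -0.05 ± 0.11 (adjusted p = 0.715). *Psmd9*, at most 4.66 FPKM in any library, passed in no comparison.

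Between the labelled genotypes with vehicle, few proteasome genes passed the test. Of the 39, 2 were higher in KO-labelled colonoids and 1 was lower, against 17.4% of all tested genes higher and 16.8% lower, with a median of 0.03 against 0.02. The 2 were *Psmg1* (0.31 ± 0.08, adjusted p = 0.015) and *Psmg2* (0.50 ± 0.11, adjusted p = 0.00551), and the 1 was *Psmd8* (-0.21 ± 0.06, adjusted p = 0.0164). *Psmg2* passed in all 23 alternatives. *Psmg1* and *Psmd8* both lost the call without control vehicle replicate 1 and without KO-labelled vehicle replicate 3, and 0 of the 14 core subunits passed in limma, with 1 at an unadjusted p under 0.05 and 1 called by limma-voom. Without the most deviating library of each control group 4 members were higher, and with the spread taken from these 2 groups alone 7 were. Under TPM *Psmg2* alone passed. Of the epithelial markers 0 of 8 were higher and 4 lower in KO-labelled colonoids with vehicle (median -0.34, and 0 lower under TPM), and of the colon epithelial markers 1 of 5 was higher and 3 were lower (1 and 1 under TPM), and their part in these values was not tested.

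With hemin, 10 members were higher in KO-labelled than in control colonoids and 2 were lower, against 19.7% of all tested genes higher and 14.7% lower, with a median of 0.12 against 0.04. The 10 were the beta subunits *Psmb3*, *Psmb5* and *Psmb7*, the alpha subunit *Psma5*, the ATPases *Psmc1* and *Psmc3*, and *Psmd1*, *Psmd2*, *Psmd7* and *Psmd11* of the base and lid. Of 23 alternatives, *Psmd1* passed in 6, *Psmc3* in 15, *Psma5* in 16, *Psmc1* in 17, *Psmb3*, *Psmb5* and *Psmd7* in 21 and the other three in 22. *Psmb7* was higher by 0.44 ± 0.08 (adjusted p = 0.00099), *Psmb5* by 0.41 ± 0.09 (adjusted p = 0.00625), and *Psmd11* by 0.36 ± 0.05 (adjusted p = 0.000437). The 2 lower ones were *Psmg4* (-0.64 ± 0.11, adjusted p = 0.00124), which passed in all 23 alternatives, and *Psmg2* (-0.35 ± 0.11, adjusted p = 0.0337), which passed in 13 of 23. Without control hemin replicate 3 the count of higher members was 16, without KO-labelled hemin replicate 1 or 3 it was 6, without the most deviating library of each control group 18 (with 1 lower), with only the groups compared 3 (with 1 lower), and under TPM 0 were higher and 1 lower. Under TPM 0 of the 10 had a log2 fold change below 0, and with *Gm23935* left out of the TPM sum 6 members were higher. With hemin 5 of 5 colon epithelial markers were lower in KO-labelled colonoids (median -0.76, and 3 of 5 under TPM), and of the 8 epithelial markers 1 was higher and 1 lower (0 and 1 under TPM), and their part in the counts was not tested.

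The hemin response itself differed between the labelled genotypes for 6 members. The interaction was above 0 for 4 and below 0 for 2, against 13.3% of all tested genes above and 10.5% below, so that both shares were below those of all genes. The median was 0.14 against 0.02 (-0.00445 under TPM). The 4 all belonged to the base and lid, *Psmd1* (0.49 ± 0.16, adjusted p = 0.0477), *Psmd2* (0.28 ± 0.09, adjusted p = 0.0412), *Psmd8* and *Psmd11* (0.40 ± 0.08, adjusted p = 0.0039), and the 2 were *Psmg2* and *Psmg4*. Of 22 alternatives *Psmd11* passed in 21, *Psmd8* in 15, *Psmd2* in 9 and *Psmd1* in 6, so that the calls of *Psmd1* and *Psmd2* were lost in most. All 11 base and lid subunits had an interaction above 0 on the deposited scale, whether or not it passed, against 6615 of 12740 tested genes. Under TPM 9 of the 11 did. The count above 0 was 11 members without control hemin replicate 3, 2 without control hemin replicate 1, control vehicle replicate 2, control vehicle replicate 3 or KO-labelled hemin replicate 1, and 1 without KO-labelled hemin replicate 3 or any 1 of the KO-labelled vehicle libraries. Under TPM it was 0 above and 1 below, and with the replicate number as a block 1 above and 2 below. The interaction was above 0 for 5 and below 0 for 0 of the 8 epithelial markers (0 and 0 under TPM), and above 0 for 0 and below 0 for 2 of the 5 colon epithelial markers, and their part in it was not tested.

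Ratios within a library do not depend on the scaling between libraries. Summed FPKM of the 14 core subunits divided by that of the 17 subunits of the 19S particle was 1.07, 1.03 and 1.05 in control vehicle, 1.05, 1.04 and 1.07 in control hemin, 1.06, 1.08 and 1.09 in KO-labelled vehicle and 1.02, 1.01 and 1.02 in KO-labelled hemin libraries. The KO-labelled hemin libraries were the lowest group and overlapped with none of the others, whereas the control groups overlapped. The sum of the 20S core was 792 to 800 FPKM in KO-labelled vehicle and 880 to 914 in KO-labelled hemin libraries, and that of the 19S particle 736 to 746 and 870 to 895. In control libraries the core summed to 757 to 789 FPKM with vehicle and 792 to 836 with hemin, and the 19S particle to 734 to 740 and 755 to 800. The sums themselves depend on that scaling. Assembly factors summed to 92.5 to 101 FPKM in control vehicle, 115 to 118 in control hemin, 107 to 113 in KO-labelled vehicle and 104 to 106 in KO-labelled hemin libraries. As a percentage of each library's FPKM sum, *Gm23935* included, they made up 0.0266% to 0.0324% in control vehicle and 0.0244% to 0.0349% in control hemin libraries, which overlapped. The KO-labelled ranges, 0.0359% to 0.0379% with vehicle and 0.0237% to 0.0303% with hemin, did not overlap. *Gm23935* held 16.8%, 29.0% and 21.0% of the sum in control vehicle replicate 1, control hemin replicate 1 and KO-labelled hemin replicate 2. Each of these libraries had the lowest share of its group. Control hemin replicates 2 and 3, at 0.0342% and 0.0349%, lay above all control vehicle libraries, so the control overlap rests on hemin replicate 1.

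Of the inducible subunits that replace the constitutive catalytic ones in the immunoproteasome, 2 were tested. Both passed as lower with hemin in KO-labelled colonoids, on the deposited scale and under TPM. *Psmb9* was near the floor in those libraries, so the fall rests on *Psmb10*. *Psmb10*, which takes the place of *Psmb7*, measured 38.7, 43.2 and 43.4 FPKM in control vehicle, 41.6, 44.3 and 28.4 in control hemin, 23.1, 25.3 and 26.3 in KO-labelled vehicle and 13.1, 10.1 and 13.2 in KO-labelled hemin libraries. The KO-labelled libraries lay below all control libraries, and the hemin libraries labelled KO were the lowest. *Psmb10* was lower in KO-labelled colonoids with vehicle and with hemin (-0.72 ± 0.15 and -1.56 ± 0.15, adjusted p = 0.00357 and 1.52e-05), and fell with hemin in KO-labelled colonoids (-0.99 ± 0.15, adjusted p = 0.000208) with a control value of -0.15 ± 0.15 (adjusted p = 0.433). Under TPM the vehicle call was lost (-0.59, adjusted p = 0.0843) and the one with hemin was kept (-1.61, adjusted p = 9.72e-05). *Psmb9*, which takes the place of *Psmb6*, was at most 1.63 FPKM in any library and fell with hemin in KO-labelled colonoids (-0.45 ± 0.16, adjusted p = 0.0317), and *Psmb8* did not reach the filter. All inducible subunits together summed to 23.96, 26.1 and 27.3 FPKM in KO-labelled vehicle and 13.5, 10.2 and 13.4 in KO-labelled hemin libraries, hardly above *Psmb10* alone. *Psmb9* was thus near the floor in the groups compared and could reach the filter only with control libraries. As a share of the summed FPKM of inducible and constitutive catalytic subunits, the inducible ones made up 20.5% to 21.0% in control vehicle, 16.4% to 19.7% in control hemin, 11.2% to 12.4% in KO-labelled vehicle and 4.75% to 5.85% in KO-labelled hemin libraries, with no overlap between any of the 4 groups. Nearly all of the inducible FPKM was *Psmb10* (38.7 of 40.1 in control vehicle replicate 1 and 13.1 of 13.5 in KO-labelled hemin replicate 1). The share is thus close to a ratio of *Psmb10* to the constitutive subunits and adds little to the values of *Psmb10*. The 7 immune cell markers summed to 0.496 to 0.779 FPKM in control vehicle, 0.0407 to 0.107 in control hemin, 0.310 to 0.445 in KO-labelled vehicle and 0.0456 to 0.354 in KO-labelled hemin libraries, so that they were near 0 throughout.

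**Figure D3:**
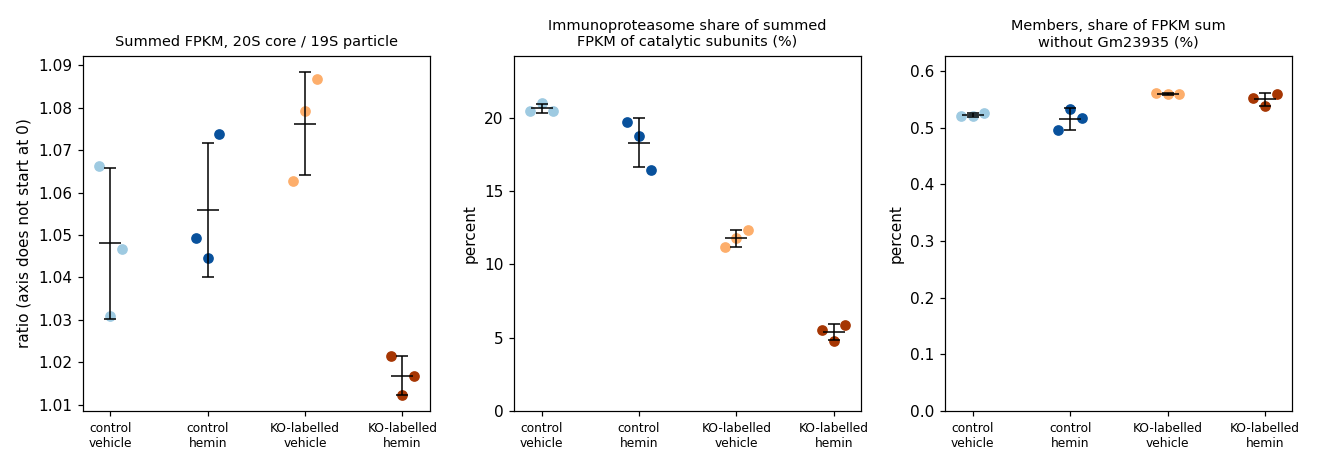
Measures per library (points) with group mean and SD (n = 3), which are the ratio of summed FPKM of the 20S core to the 19S particle (left), the percentage of catalytic subunit FPKM from immunoproteasome genes (middle), and the percentage of the FPKM sum without *Gm23935* held by the 41 members (right). The ratio is lowest in KO-labelled hemin libraries (1.01 to 1.02). The immunoproteasome share, nearly all of it *Psmb10*, steps down from 20.5% to 21.0% in control vehicle to 4.75% to 5.85% in KO-labelled hemin libraries.

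Other genes of the pathway were taken from a list with 35 tested genes. With hemin 16 rose and 5 fell in KO-labelled colonoids, with a median of 0.19, against 29.9% and 30.4% of all tested genes, and 5 rose and 7 fell in control colonoids, with a median of 0.08, against 23.2% and 26.7%, so that both control shares were below those of all genes. Between the labels, 3 were higher and 8 lower with vehicle (17.4% and 16.8% of all tested genes), 13 higher and 4 lower with hemin (19.7% and 14.7%), and the interaction was above 0 for 10 and below 0 for 2 (13.3% and 10.5%). Under TPM the counts with hemin were 3 higher and 7 lower in KO-labelled and 0 higher and 4 lower in control colonoids, and the interaction was above 0 for 2 and below 0 for 0. The 3 higher were *Zfand5*, *Zfand2a* and *Uba6*, so that every other rise in KO-labelled and every rise in control colonoids given below is lost under TPM. *Psme2* and *Psme3* in KO-labelled and *Nploc4* in control colonoids turned to -0.07, -0.13 and -0.03. Without the most deviating library of each control group 9 rose and 8 fell in control colonoids and the interaction was above 0 for 16. Leaving out 1 library moved some of these counts by over 1.5 times. The interaction count above 0 became 6 without KO-labelled vehicle replicate 3. The count that rose in control colonoids became 8 without control hemin replicate 3, and the count that fell there 4 without control vehicle replicate 1. The count that fell in KO-labelled colonoids became 3 without KO-labelled vehicle replicate 1, KO-labelled vehicle replicate 3 or KO-labelled hemin replicate 3. With vehicle, 5 were higher in KO-labelled colonoids without control hemin replicate 3 and 5 were lower without control vehicle replicate 2.

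Of the activators that cap the core in place of the 19S particle, *Psme1*, a subunit of the interferon-inducible PA28 ring, fell in KO-labelled colonoids with hemin (-0.43 ± 0.05, adjusted p = 4.23e-05) and was at -0.02 ± 0.05 (adjusted p = 0.784) in control. *Psme2*, the other PA28 subunit, *Psme3*, the nuclear PA28 gamma, and *Psme4*, PA200, rose in KO-labelled colonoids (0.26 ± 0.09, 0.21 ± 0.06 and 0.50 ± 0.12, adjusted p = 0.0304, 0.013 and 0.00395). Reads of *Psme2* and its copy *Psme2b* can be shared, so the split between them is uncertain. These 3 rises and 1 fall were among 6 genes, against 29.9% of all tested genes higher and 30.4% lower, and under TPM the fall alone passed. Of 7 genes for other 19S subunits and bound proteins, 4 rose in KO-labelled colonoids against 29.9% of all tested genes (none of these 4 passed under TPM), with 0.59 ± 0.08 (adjusted p = 0.000111) for *Ecpas*, the proteasome adaptor and scaffold, 0.59 ± 0.06 (adjusted p = 4.72e-06) for *Ube3c*, a ubiquitin ligase that extends chains at the proteasome, 0.34 ± 0.06 (adjusted p = 0.000849) for *Txnl1*, a thioredoxin-like protein of the 19S, and 0.44 ± 0.16 (adjusted p = 0.0316) for the ubiquitin receptor gene *Adrm1*. *Ecpas* and *Ube3c* also rose in control colonoids (0.30 ± 0.08 and 0.31 ± 0.06, adjusted p = 0.0116 and 0.000834). *Usp14* and *Uchl5*, the deubiquitinases that associate with the particle, passed in no comparison.

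Of 9 shuttle factor and unfoldase genes, 3 rose and 1 fell with hemin in KO-labelled colonoids, a share of rises close to the 29.9% of all tested genes, and of 4 ubiquitin and E1 genes 2 rose and 0 fell (limma; 1 and 1 under TPM). *Vcp*, the p97 unfoldase, and its cofactors *Nploc4* and *Ufd1* rose by 0.60 ± 0.09, 0.68 ± 0.05 and 0.37 ± 0.08 (adjusted p = 0.000112, 8.37e-07 and 0.00289), and *Nploc4* rose in control colonoids too (0.15 ± 0.05, adjusted p = 0.0277). The 2 ubiquitin and E1 genes that rose were *Ubb*, a polyubiquitin gene (0.68 ± 0.18, adjusted p = 0.0082), and *Uba6*, an E1 enzyme (1.10 ± 0.16, adjusted p = 0.000139). *Rps27a*, a ubiquitin and ribosomal protein fusion gene, was at -0.88 ± 0.40 (adjusted p = 0.0761), and at -1.23 under TPM, where it passed (adjusted p = 0.0229). Reads of *Ubb* and *Rps27a* can fall on shared ubiquitin sequence, so their split is uncertain. In control colonoids 1 of the 9 shuttle factor and unfoldase genes rose and 4 fell, against 23.2% of all tested genes higher and 26.7% lower, and 1 of these falls passed under TPM. The shuttle factors *Rad23b* and *Ubqln1* fell in control colonoids (-0.57 ± 0.07 and -0.22 ± 0.06, adjusted p = 7e-05 and 0.0139) and were at -0.10 ± 0.07 and 0.10 ± 0.06 in KO-labelled colonoids (adjusted p = 0.242 and 0.217). Under TPM the control fall of *Rad23b* passed (-0.77, adjusted p = 0.00247) and that of *Ubqln1* did not (-0.42, adjusted p = 0.0602), and *Rad23b* also passed in KO-labelled colonoids (-0.44, adjusted p = 0.0405).

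**Figure D4:**
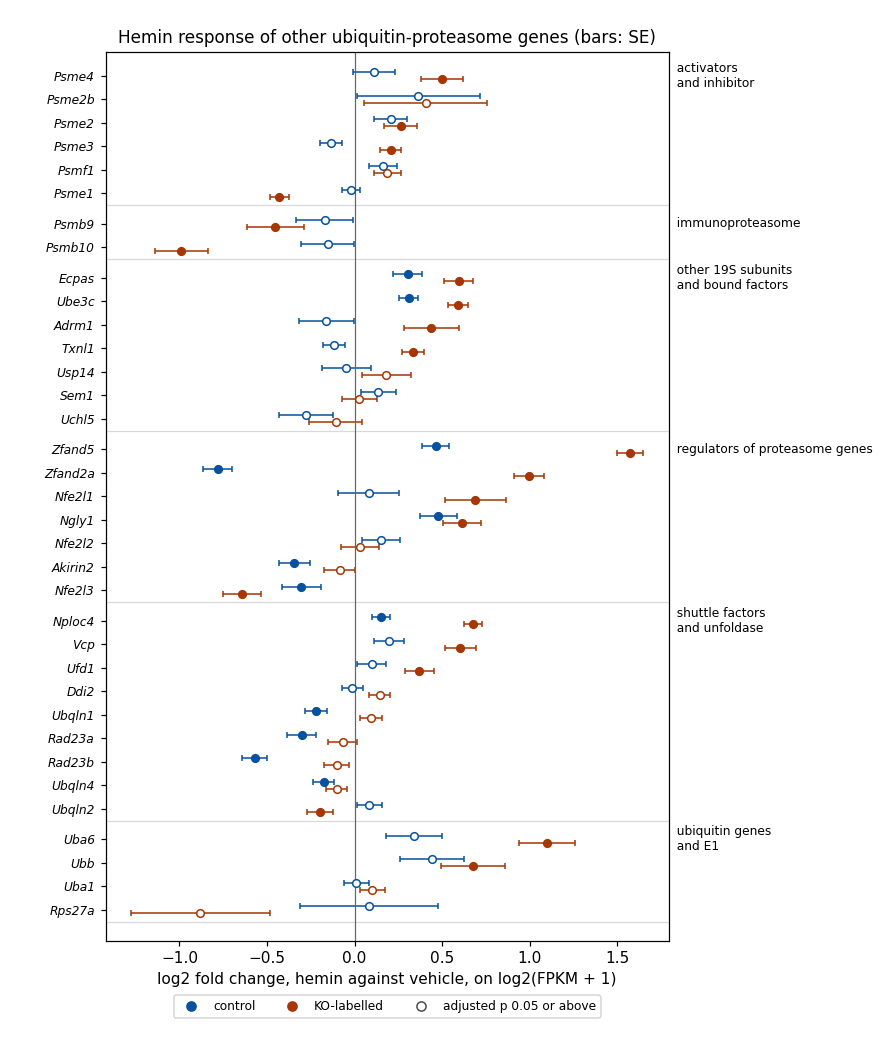
Log2 fold change with hemin against vehicle (horizontal axis, on log2(FPKM + 1)) of the 35 other ubiquitin-proteasome genes tested, by list, in control (blue) and KO-labelled (brown) colonoids, with standard errors and filled points at an adjusted p under 0.05. *Zfand5* and *Uba6* lie farthest to the right in KO-labelled colonoids, at 1.57 and 1.10, and *Psmb10* farthest to the left, at -0.99 (under TPM 3 of the 35 rose in KO-labelled and 0 in control colonoids).

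A list of 7 regulators held the NRF genes, *Ngly1*, *Akirin2*, *Zfand5* and *Zfand2a*, of which the last 3 encode proteins that carry or bind proteasomes. With hemin 4 rose and 1 fell in KO-labelled colonoids, against 29.9% of all tested genes higher and 30.4% lower. Under TPM 2 rose there (*Zfand5* and *Zfand2a*) and 1 fell. In control colonoids 2 rose and 3 fell, against 23.2% and 26.7% (0 and 3 under TPM). *Nfe2l1* measured 34.9, 36.1 and 36.1 FPKM in KO-labelled vehicle and 58.6, 54.8 and 61.6 in KO-labelled hemin libraries, and 37.3, 46.2 and 46.4 and 53.5, 55.4 and 31.95 in control vehicle and hemin libraries. The KO-labelled groups did not overlap, and control hemin replicate 3 lay below its 2 companions. It rose in KO-labelled colonoids (0.69 ± 0.17, adjusted p = 0.0053), with 0.08 ± 0.17 (adjusted p = 0.728) in control and a difference that did not pass the test (0.61 ± 0.25, adjusted p = 0.101). *Ngly1*, the glycanase that helps activate NRF1, rose in both (0.61 ± 0.11 in KO-labelled and 0.48 ± 0.11 in control, adjusted p = 0.000475 and 0.00327). *Nfe2l3*, which encodes NRF3, fell in both (-0.64 ± 0.11 in KO-labelled and -0.30 ± 0.11 in control, adjusted p = 0.000408 and 0.0389), but measured at most 1.18 FPKM in any library and reached the filter only through the KO-labelled vehicle libraries. *Nfe2l2*, which encodes NRF2, was lower in KO-labelled colonoids with vehicle and with hemin (-0.82 ± 0.11 and -0.94 ± 0.11, adjusted p = 0.000137 and 5.21e-05) and was at 0.03 ± 0.11 with hemin within them (adjusted p = 0.824). *Akirin2*, which carries proteasomes into the nucleus, fell in control colonoids (-0.34 ± 0.09, adjusted p = 0.00707) and was at -0.09 ± 0.09 in KO-labelled ones (adjusted p = 0.417).

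The zinc finger genes *Zfand5* and *Zfand2a*, whose products bind the proteasome, had the largest differences in hemin response between the labels among the 35. *Zfand5* measured 32.5, 27.9 and 29.5 FPKM in control vehicle, 39.9, 39.01 and 46.3 in control hemin, 18.6, 18.4 and 17.4 in KO-labelled vehicle and 57.5, 54.9 and 55.8 in KO-labelled hemin libraries. None of the 4 groups overlapped. It rose by 1.57 ± 0.08 (adjusted p = 3.39e-08) in KO-labelled and 0.46 ± 0.08 (adjusted p = 0.000462) in control colonoids. *Zfand2a* measured 14.97, 14.4 and 16.1 and 7.77, 9.13 and 8.32 FPKM in control and 5.53, 5.43 and 4.99 and 12.6, 10.3 and 12.01 FPKM in KO-labelled vehicle and hemin libraries. With hemin it fell in control (-0.78 ± 0.08, adjusted p = 2.24e-05) and rose in KO-labelled colonoids (1.00 ± 0.08, adjusted p = 2.04e-06), and both genes differed in response between the labels (1.11 ± 0.11, adjusted p = 4.09e-05 and 1.78 ± 0.12, adjusted p = 3.07e-06).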

How the data were processed

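Colonoid libraries were grouped by the genotype and treatment in their labels. Per the labels and the submitters' processing notes, Novogene prepared poly-A mRNA libraries, and the notes list fastp, HISAT2 2.0.5, featureCounts 1.5.0-p3 and mm10. The authors deposited FPKM in which libraries were already brought to a common scale, as shown by median-of-ratios factors that were equal in all libraries. Of the non-zero values under 100 fragments, 100% lay within 0.05 of a whole number of fragments in every library, so fragments were recovered for depth. The precision of a value is limited by 3 libraries per group.

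limma 3.58.1 (R 4.3.3) was fitted to log2(FPKM + 1) for genes reaching an FPKM of 1 in 3 or more libraries, with 1 mean per group, moderated with an intensity trend, two-sided, and Benjamini-Hochberg adjusted over 12740 genes in each of 5 comparisons. A fold change is on that scale, which understates low genes, and ± gives its standard error. "Rose", "fell" and "changed" mean an adjusted p under 0.05. The functions were tested on simulated data. Alternatives were a pseudocount of 0.1, no filter, a mean FPKM of at least 5, TPM with and without *Gm23935*, median-of-ratios scaling, a replicate block, no trend, limma-voom, only the groups compared and each library left out. With the most deviating library of each control group left out, these made the 23 alternatives of a tally (22 for the interaction, which uses all groups). A log2 fold threshold of 1 was tried too and is in no tally. Median-of-ratios scaling gave every library an equal factor, and leaving out a library of a group not compared changes the spread and not the fold change, so a tally of alternatives passed includes some that could not move the value. Leaving out the most deviating library of each control group and the counts by role were added after seeing the data.

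The members and lists were chosen with earlier results of these data known, and 2 genes of the pathway list are not reported here. Per-library values are given for the catalytic subunits, for the highest and lowest response to hemin of each role group in KO-labelled colonoids, and for the largest interaction; *Psmb10*, *Nfe2l1*, *Zfand5* and *Zfand2a* were chosen after their values were seen. Motifs were searched in RefSeq promoter windows with Python 3.11.15. Replicate numbers did not pair the libraries (18 same-number correlations of deviations, -0.33 to 0.18). No 2 libraries of a group agreed within sampling noise (chi-square per degree of freedom at least 1.98).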

Additional observations from a re-analysis of the deposited data

Results flagged for a closer look

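The hemin response differed between the labelled genotypes, by the interaction term in limma at an adjusted p under 0.05, for 6 of the 39 proteasome genes, 4 above 0 and 2 below, against 13.3% of all tested genes above and 10.5% below, so that both shares were below those of all genes. The interaction (log2, KO-labelled response minus control response) was 0.488 for *Psmd1*, 0.281 for *Psmd2*, 0.297 for *Psmd8* and 0.395 for *Psmd11*, and it was -0.854 for *Psmg2* and -0.619 for *Psmg4*. Of 22 alternatives *Psmg2* passed in 22, *Psmd11* and *Psmg4* in 21, *Psmd8* in 15, *Psmd2* in 9 and *Psmd1* in 6. Under TPM *Psmg2* alone passed.

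The same test passed for 12 of the 35 other pathway genes, 10 above 0 and 2 below, against the same 13.3% and 10.5%. Under TPM 2 were above 0 (*Zfand2a* and *Zfand5*) and 0 below, and without KO-labelled vehicle replicate 3 there were 6 above 0. It was below 0 for *Psme1* (-0.409) and *Psmb10* (-0.836). It was above 0 for *Psme3* (0.342), *Txnl1* (0.452), *Ube3c* (0.281), *Zfand2a* (1.78), *Zfand5* (1.11), *Nploc4* (0.524), *Rad23b* (0.469), *Ubqln1* (0.317), *Vcp* (0.408) and *Uba6* (0.758). For *Hmox1* itself the interaction was 2.81, with the higher hemin response in the libraries labelled KO.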

How the results depend on the processing

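The deposited scaling, 3 libraries per group and control hemin replicate 3 set the limits. TPM moved the members' median log2 fold change with hemin to -0.114 in control and -0.125 in KO-labelled colonoids, between the labels with vehicle to 0.176, and the interaction to -0.00445, while the members' median relative to all tested genes kept its sign. TPM left 0 members higher with hemin in either genotype, 1 higher and 0 lower between the labels with vehicle, 0 higher and 1 lower with hemin, and 0 above and 1 below for the interaction. TPM without *Gm23935* gave medians of -0.0304, -0.0113, 0.0943 (vehicle) and 0.0248 (interaction), with 3 higher and 4 lower with hemin in control, 6 higher and 7 lower in KO-labelled, 0 lower between the labels with vehicle, 6 higher with hemin and 1 interaction above 0. Single genes with hemin in KO-labelled colonoids went, under TPM and TPM without *Gm23935*, to -0.157 and -0.0441 (*Psmb5*), -0.267 and -0.154 (*Psmb2*), -0.238 and -0.125 (*Psmb6*), -0.145 and -0.0329 (*Psmd12*), and *Psmb7* under TPM to -0.0825. The cause was not tested.

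With only the groups compared, 4 members were higher with hemin in control colonoids, 7 between the labels with vehicle, and 3 higher and 1 lower with hemin. Without the most deviating library of each control group, 2 were lower with hemin in control, 4 higher between the labels with vehicle, 18 higher and 1 lower with hemin, and 11 interactions were above 0. Without a filter, 1 was lower between the labels with hemin and 2 interactions were above 0. limma-voom gave 1 lower there, and moderation without a trend 2 interactions above 0. With a mean FPKM of at least 5 the members' median with hemin in KO-labelled colonoids was 0.133 above that of all tested genes. With a log2 fold threshold of 1 as well, 0 members were called, higher or lower, in any of the 5 comparisons.

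Leaving out 1 library gave 0 to 2 members lower with hemin in control, 13 to 25 higher in KO-labelled, 1 to 3 higher and 0 to 1 lower between the labels with vehicle, and 6 to 16 higher and 1 to 2 lower with hemin. The median with hemin between the labels was 0.120 to 0.174, or 0.0825 to 0.136 relative to all genes, and 1 to 11 interactions were above 0. *Psma6* and *Psmd10* with hemin in KO-labelled colonoids ranged from -0.113 to 0.0395 and from -0.152 to 0.00519, and the interaction of *Psmb6* from -0.184 to 0.0369.

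Replicate numbers only name the libraries. With the replicate block, 8 members rose with hemin in control and 17 in KO-labelled colonoids, 8 were higher and 1 lower between the labels with hemin, and 1 interaction was above 0 and 2 below. The correlation of deviations of same-numbered libraries averaged -0.0425, against 0.0232 for others.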
